A study of Mus musculus with 12 samples.

Results

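The miRNAs of exosomes from mouse granulosa cells that received iron together with vitamin E were compared with those of untreated cells, across all miRNA entries counted. The VE and CON treatment labels chose 6 of the 12 small RNA libraries, 3 in each group. CON cells were left untreated. VE cells received ferric citrate at 100 μM, an iron salt, and VITE (vitamin E, a lipophilic antioxidant) at 200 μM. The other 6 libraries, used here as a reference, came from cells with the same ferric citrate alone (FAC, 3 libraries) or with 100 μM of the iron chelator deferoxamine mesylate added (DFO, 3 libraries). All cells spent 24 h in exosome-free DMEM/F12 and then 48 h under their condition. Per the study's methods, granulosa cells were taken from the ovaries of female Kunming mice primed with a gonadotropin, whose age is not given in the sources used here. No group received vitamin E without iron, so a difference between VE and CON cannot be assigned to either agent. The labels do not say that the libraries of a group came from separate cultures, so the p-values measure only the spread between these libraries, which may be technical.

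A miRNA is cut from a hairpin precursor whose arms are named 5p and 3p. The guide arm is loaded into an Argonaute protein and pairs with mRNAs mainly through its seed, which lowers their translation or stability, while the passenger arm is usually degraded. Granulosa cells surround the oocyte, and exosomes are small membrane vesicles of endosomal origin that carry miRNAs between cells. Iron excess promotes the peroxidation of membrane lipids, the process that drives the form of cell death called ferroptosis, and vitamin E interrupts the peroxidation chain.

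The abundant miRNAs that differed between VE and CON exosomes belonged to a few families. The mature sequences below are from RefSeq (GRCm38.p6), written 5′ to 3′, with the seed (bases 2 to 8) in capitals. A mature sequence was found for 551 of the 642 miRNA names in the files, and none is shown for miR-486a, miR-486b or miR-143. The let-7 guide arms are shown first, since members with the same seed had different values:
let-7b-5p: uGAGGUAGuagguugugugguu
let-7c-5p: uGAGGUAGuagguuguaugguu
let-7e-5p: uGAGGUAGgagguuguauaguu
let-7i-5p: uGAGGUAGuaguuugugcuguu
let-7j: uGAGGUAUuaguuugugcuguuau
let-7a-5p: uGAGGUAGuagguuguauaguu
let-7f-5p: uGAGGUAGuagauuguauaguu
Counted from 1 at the 5′ end of let-7c-5p, let-7b-5p differs by A17G, let-7a-5p by G19A, let-7e-5p by U9G and G19A, and let-7i-5p by G12U, A17G, U18C and G19U. Reads of such near-identical members can be assigned to the wrong one, and how the authors placed them is not given in the sources used here, so the values of single let-7 members are uncertain. The miRNAs that were higher in VE exosomes in all 3 libraries had seeds unlike each other:
miR-99a-5p: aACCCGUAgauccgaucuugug
miR-361-5p: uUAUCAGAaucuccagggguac
miR-146a-5p: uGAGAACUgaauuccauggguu
miR-7a-5p: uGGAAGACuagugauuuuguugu
miR-204-5p: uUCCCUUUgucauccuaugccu
miR-451a, an erythroid miRNA, is shown with the passenger arms miR-25-5p and miR-125b-1-3p, which were lower, and with miR-203-3p:
miR-451a: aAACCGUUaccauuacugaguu
miR-25-5p: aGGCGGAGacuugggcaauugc
miR-125b-1-3p: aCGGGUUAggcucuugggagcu
miR-203-3p: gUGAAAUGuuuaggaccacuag
In the RefSeq annotation, Mir25 lies in Mcm7 beside Mir93 and Mir106b, Mir99a is a neighbour of Mirlet7c-1, and Mirlet7b is a neighbour of Mirlet7c-2.

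Levels are given as CPM, miRNA counts scaled to a common library total after TMM normalization, and these libraries held 452021 to 1211227 miRNA counts in CON and 2227419 to 3530978 in VE. Taking 3 counts as the floor of detection, the floor was 2.46 to 7.90 CPM in CON and 0.943 to 1.36 CPM in VE. Absence of an entry was therefore better resolved in VE than in CON. Reads copied by PCR do not stand for separate molecules, so these floors and the intervals given below reflect counting error alone. The CON libraries had 266, 267 and 284 entries with at least 1 count and the VE libraries 296, 295 and 318, without overlap (two-sided exact permutation test, p = 0.1, below which 3 libraries against 3 cannot go). Entries with at least 10 counts numbered 209, 133 and 145 in CON and 205, 229 and 235 in VE, and here the groups overlapped (exact p = 0.2). The share of a library's reads that were counted on miRNAs was 4.998%, 1.997% and 2.83% in CON and 9.20%, 12.1% and 14.6% in VE, again without overlap (exact p = 0.1). The widest range of a 95% Wilson interval among these 6 shares was that of VE replicate 3, from 14.55% to 14.58%. In bulk vesicle RNA, a change in the number of vesicles of one origin cannot be told apart from a change in the RNA that each carries. The 10 leading entries held 81.7% ± 0.502 (SD, n = 3) of the miRNA counts in CON and 82.6% ± 0.0947 (SD, n = 3) in VE (exact p = 0.1).

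**Figure D1:**
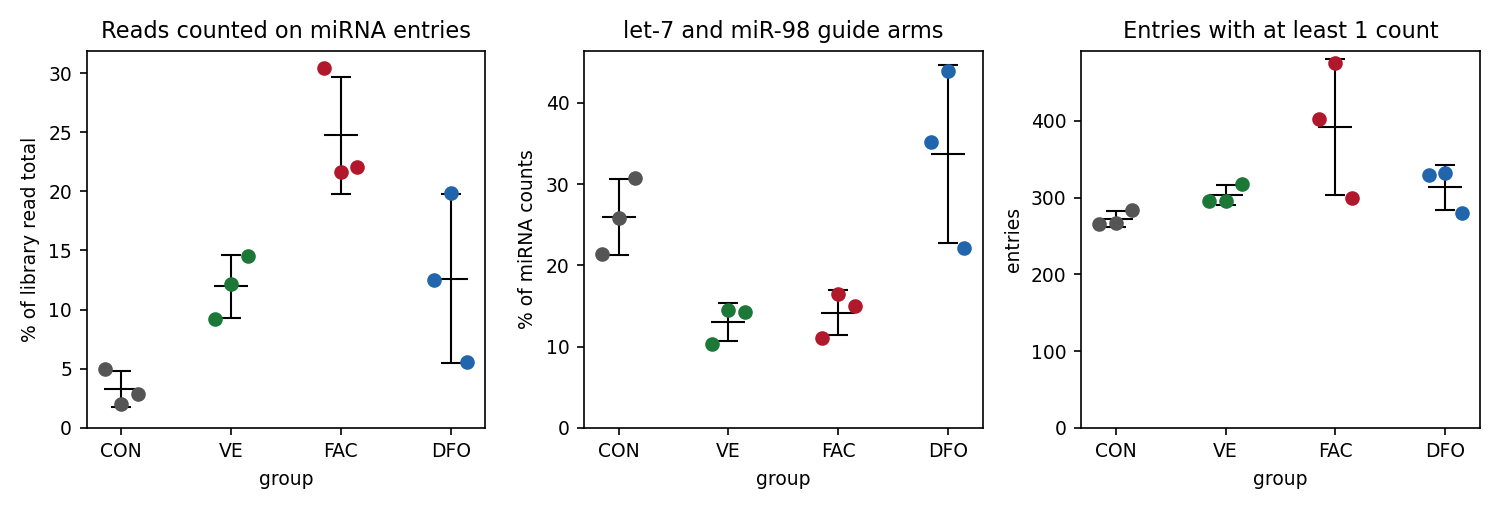
The share of library reads counted on miRNA entries (%), the share of miRNA counts on the let-7 and miR-98 guide arms (%) and the number of entries with at least 1 count, by group. Points are libraries, and bars are the mean and SD of 3 libraries. The VE libraries (10.3% to 14.4%) lie below the CON libraries (21.3% to 30.7%) in the let-7 share.

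Among the abundant miRNAs of VE exosomes, miR-143-3p and miR-125b-1-3p were lower with TMM scaling. With the library read totals they were at -0.33 and -0.20 on the log2 scale and did not pass the threshold given below. let-7b-5p, let-7c-5p, let-7e-5p and let-7i-5p were lower with TMM scaling but had positive log2 fold changes with the library read totals. The erythroid miR-486a-5p/miR-486b-5p and, with TMM but not RLE scaling, miR-99a-5p were higher. In all, 57 of 547 tested entries (10.4%) passed a fold change of at least 1.5 with an unadjusted p under 0.05, 18 higher in VE (3.29%) and 39 lower (7.13%). With a false discovery rate adjustment, 11 entries (2.01%) had an adjusted p under 0.05, of which 1 was higher and 10 were lower (edgeR quasi-likelihood test on counts, Benjamini-Hochberg). The balance depended on the scaling: with RLE factors 10 entries were higher and 48 lower, and with the library read totals 105 were higher and 13 lower. It also depended on the count filter with TMM scaling. Among the 102 entries with at least 10 counts in every library, 8 were higher and 8 lower. A filter of at least 10 counts in 2 VE or 2 CON libraries, chosen after seeing the data, gave 20 higher and 13 lower. A fit of the VE and CON libraries alone, with 349 tested entries, gave 6 higher and 36 lower. Relative to the TMM scaling, the read totals moved the median log2 fold change of the 168 entries counted in all 6 libraries by 1.84 and RLE factors by -0.24, so the folds below describe changes in the makeup of the miRNA pool.

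Many of the lower entries rested on 1 CON library. In 25 of the 39 lower entries, over 90% of the CON level came from a single library, which was CON replicate 1 in 14 entries, CON replicate 2 in 5 and CON replicate 3 in 6. The same held for 2 of the 18 higher entries, 1 each in VE replicates 1 and 3. Over all 432 tested entries with a count in these 6 libraries, 184 had over 90% of the higher group's level in 1 library. At least 10 counts in every library of the higher group were found for 14 of the 18 higher entries and for 8 of the 39 lower ones. Of the 57 entries, 26 had no overlap between VE and CON libraries, 14 higher and 12 lower, against 71 of all 547 (13%).

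**Figure D2:**
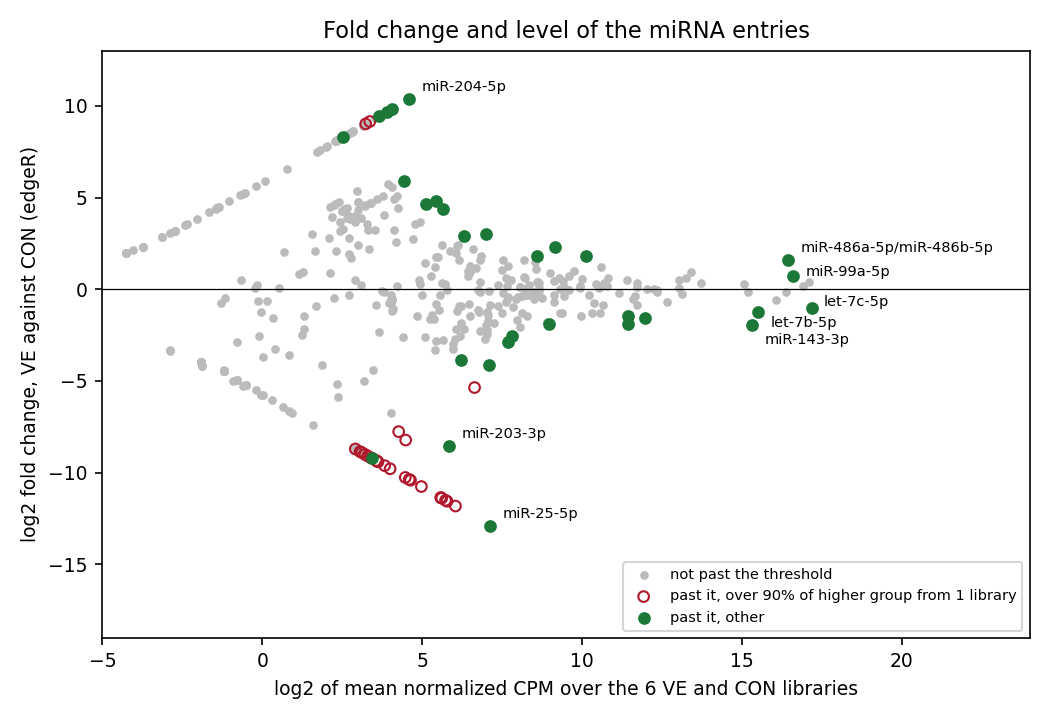
The log2 fold change of VE against CON (vertical axis, edgeR) and the log2 of the mean CPM over the 6 libraries (horizontal axis) for each tested entry counted in these libraries. Open red circles are entries past the threshold with over 90% of the higher group's level in 1 library (27 of 57), filled green circles are the others past it, and grey points are the rest.

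miR-143-3p, which is best known from smooth muscle and other mesenchymal cells, was the abundant miRNA with the smallest p among the lower entries. Its level was 108430, 54714 and 30994 CPM in the CON libraries and 16054, 13784 and 20573 CPM in the VE libraries. The groups did not overlap, although the CON libraries ranged widely and CON replicate 3 was nearest to VE. The log2 fold change was -1.95 (SE 0.42, adjusted p = 0.00103). It stayed past the fold and p threshold whichever 1 library was left out, while the adjusted p rose to 0.132 without CON replicate 1 and 0.0564 without VE replicate 2. FAC exosomes held 66233, 36692 and 39227 CPM, within the CON range, and VE against FAC gave -1.50 (SE 0.41, adjusted p = 0.0566). With the library read totals as the scale, the value against CON was -0.33 and no longer passed. The passenger arm miR-143-5p had 88, 0 and 0 counts in CON and 0 in all VE libraries, so its call (adjusted p = 0.434) rested on CON replicate 1 and was lost without it (0.00) and also without VE replicate 1 (-9.42), 2 (-9.40) or 3 (-9.39).

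miR-486a-5p and miR-486b-5p, which the files join in 1 entry and which are abundant in red blood cells, were the only entry higher in VE at an adjusted p under 0.05 with edgeR, though not with DESeq2. The level was 40137, 65029 and 29562 CPM in CON and 168936, 88569 and 143713 CPM in VE. Every VE library lay above every CON library, and the log2 fold change was 1.57 (SE 0.39, adjusted p = 0.00821). The entry passed the fold and p threshold whichever 1 library was left out, with log2 fold changes of 1.34 to 1.93. Its adjusted p rose to 0.0644 when CON replicate 1 was left out and to 0.188 when CON replicate 3 was. Leaving out VE replicate 1 gave 0.137, and leaving out VE replicate 3 gave 0.0973. With DESeq2 the log2 fold change was 1.36 and the call was lost (unadjusted p = 0.137, adjusted p = 0.373).

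The other erythroid miRNAs had wider spreads. Of the 4 tested entries on the erythroid marker list, 3 were higher in VE past the threshold (3.29% of all 547 entries were), and miR-486a-3p, with 436, 276 and 418 counts in CON and 1712, 2132 and 2504 in VE, gave 0.43 (SE 0.85) with TMM and was not. A further listed entry, miR-144-3p, had no count in these 6 libraries and was not tested. All 4 log2 fold changes were positive with TMM, RLE factors, total counts and the library read totals. The median log2 fold change of the 4 was 1.69, against 0.04 over the 432 entries counted in these libraries. miR-486b-3p, from the opposite arm of the miR-486b hairpin, was at 227, 295 and 56.6 CPM in CON and at 1388, 241 and 1235 CPM in VE. VE replicate 2 lay within the CON range, and the log2 fold change was 2.31 (SE 0.92, adjusted p = 0.289), which lost its call without VE replicate 1 (1.94). miR-451a, which Argonaute 2 rather than Dicer matures and which takes part in red cell maturation, was at 804, 653 and 50.3 CPM in CON and 662, 779 and 3798 CPM in VE. These groups overlapped, and its log2 fold change of 1.80 (SE 0.82, adjusted p = 0.46) lost its call without VE replicate 3 (0.52) or CON replicate 3 (1.24). The summed level of the list was 30326 to 66704 CPM in CON, 90366 to 171759 in VE, 7423 to 108677 in FAC and 15728 to 87597 in DFO. Their part in the other differences was not tested.

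let-7 guide arms made up a smaller share of the miRNA counts in all 3 VE libraries than in any CON library, but not of the library reads, where the list median was 0.83 on the log2 scale. let-7 was first found as a timing regulator in worms, and its mammalian members repress growth-promoting mRNAs and are kept low in stem cells by LIN28. Of the 10 tested let-7 and miR-98 guide arms, 5 were lower past the threshold with TMM scaling (7.13% of all 547 entries were) and none was higher, whereas with the library read totals let-7b, let-7c, let-7e and let-7i turned to 0.73, 0.98, 0.72 and 0.28. The list median of -1.14 with TMM became 0.83 with the read totals, where the median entry itself moved by 1.84. None of the 5 had an adjusted p under 0.05.

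let-7c-5p was the leading entry of all 3 CON libraries. Its level was 148689, 219206 and 229384 CPM in CON and 68721, 110258 and 113556 CPM in VE. The groups did not overlap, and the log2 fold change was -1.03 (SE 0.34, adjusted p = 0.086) with TMM, and turned positive with the library read totals as given above. let-7b-5p was at 46520, 66864 and 83379 CPM in CON and at 28137, 28064 and 27039 CPM in VE. The VE libraries were close to each other, and the log2 fold change was -1.24 (SE 0.40, adjusted p = 0.086). Both passed the threshold whichever 1 library was left out. let-7i-5p was at 6712, 5229 and 6107 CPM in CON and 1487, 1856 and 2747 CPM in VE, a log2 fold change of -1.57 (SE 0.60, adjusted p = 0.235) that also passed whichever 1 library was left out.

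The less abundant members were less even. let-7e-5p overlapped between groups, at 1286, 4312 and 6735 CPM in CON and 949, 1792 and 1699 CPM in VE, and its log2 fold change of -1.47 (SE 0.63, adjusted p = 0.434) lost its call without CON replicate 3 (-0.96) or VE replicate 1 (-1.24). let-7j, whose sequence begins like let-7i-5p apart from the last seed base, was at 148, 479 and 454 CPM in CON and 9.49, 66.7 and 72.6 CPM in VE. Its log2 fold change of -2.86 (SE 1.30, adjusted p = 0.46) was lost without CON replicate 2 (-2.68), VE replicate 1 (-2.37) or VE replicate 2 (-3.13).

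Members with the same seed did not all have lower values. let-7a-5p was at 4564, 5710 and 5293 CPM in CON and 1524, 7402 and 6425 CPM in VE, a log2 fold change of -0.02 (SE 0.53). let-7f-5p gave 0.00 (SE 0.56), and let-7d-5p, at 29.9 to 68.8 CPM in CON and 81.3 to 271 CPM in VE, gave 1.83 (SE 1.14) without passing the threshold. These members were named after their values were seen. Whether their changes differed from that of let-7c-5p was not tested. Summed, the guide arms held 21.3%, 25.8% and 30.7% of the miRNA counts in CON and 10.3%, 14.4% and 14.2% in VE (exact permutation p = 0.1, two-sided). Without let-7b-5p and let-7c-5p, the remaining members held 1.91% ± 0.344 (SD, n = 3) in CON and 1.25% ± 0.529 (SD, n = 3) in VE, so most of the difference lay in these members. The 8 tested let-7 passenger arms had a median log2 fold change of -0.19, and none passed the threshold.

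miR-99a-5p, whose hairpin lies beside that of let-7c and whose family represses the growth kinase mTOR, was higher in VE with TMM scaling but not past the threshold with RLE factors. It was at 69958, 89029 and 62217 CPM in CON and at 116355, 125268 and 128318 CPM in VE. The groups did not overlap and the VE libraries were close together, yet the log2 fold change was only 0.74 (SE 0.36, adjusted p = 0.46). The call was lost without CON replicate 1 (0.70), CON replicate 3 (0.61), VE replicate 2 (0.73) or VE replicate 3 (0.71). It was also lost with RLE factors or DESeq2 (both 0.50, under the fold threshold). miR-99a-5p differs from miR-100-5p by U16A, so its reads may be shared with that entry. Of the 7 tested miR-10, miR-99, miR-100 and miR-125 guide arms, it was the 1 past the threshold (3.29% of all 547 entries were higher past it).

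**Figure D3:**
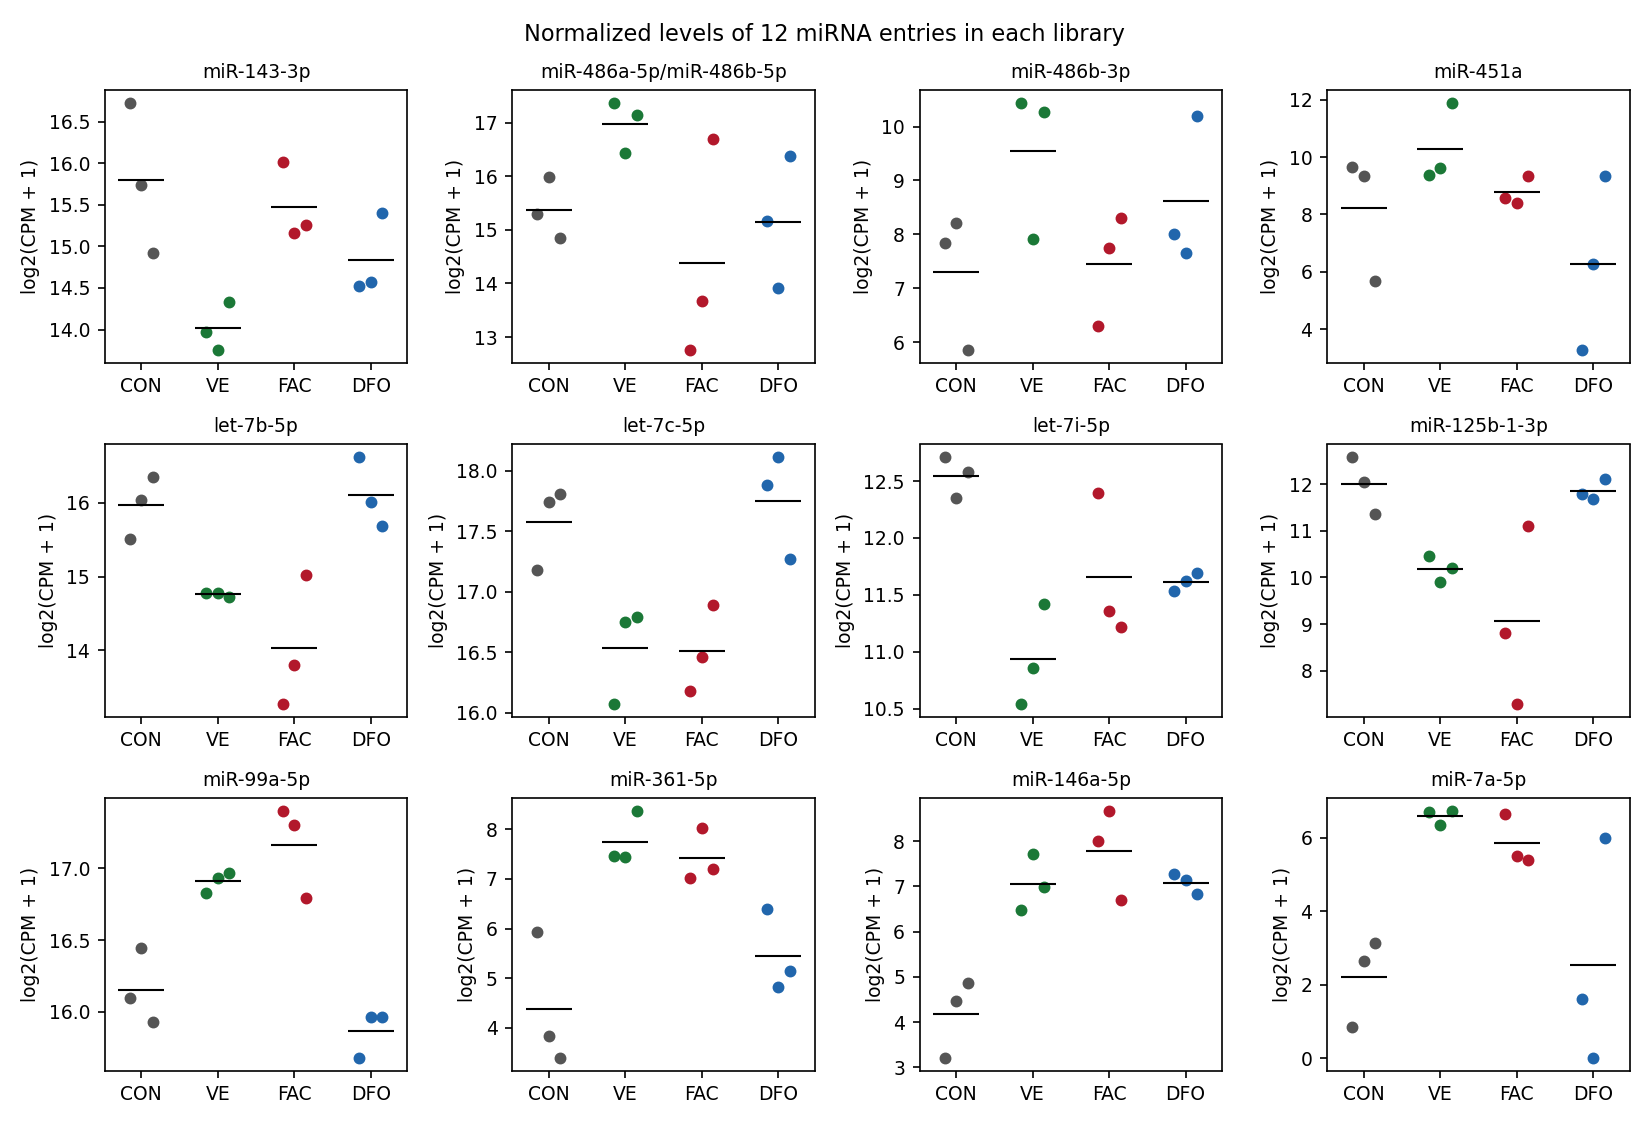
Normalized levels, as log2(CPM + 1), of 12 miRNA entries in each library of the 4 groups, each panel with its own vertical range that does not start at 0. Points are libraries and lines are the means of 3 libraries. With TMM scaling the VE and CON libraries are separate for miR-143-3p, miR-486a-5p/miR-486b-5p, let-7b-5p, let-7c-5p, let-7i-5p, miR-125b-1-3p, miR-99a-5p, miR-361-5p, miR-146a-5p and miR-7a-5p and overlap for miR-486b-3p and miR-451a. With the library read totals let-7b, let-7c and let-7i turn to 0.73, 0.98 and 0.28 on the log2 scale.

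Several less abundant miRNAs were higher in all 3 VE libraries than in any CON library. miR-361-5p, whose hairpin lies in Chm, was at 59.8, 13.2 and 9.43 CPM in CON and 175, 172 and 331 CPM in VE, a log2 fold change of 3.02 (SE 1.38, adjusted p = 0.46). Its call was lost without CON replicate 2 (2.69), CON replicate 3 (2.61) or VE replicate 3 (2.64). miR-146a-5p, which is induced by NF-κB and restrains its signalling through IRAK1 and TRAF6, was at 8.19, 21.1 and 28.3 CPM in CON and at 88.5, 208 and 125 CPM in VE. Every VE library was above every CON library, with a log2 fold change of 2.88 (SE 1.33, adjusted p = 0.46) that lost its call without CON replicate 1 (2.51) or VE replicate 2 (2.49), or with RLE factors (2.53). In a fit of the VE and CON libraries alone, both calls were lost (edgeR, unadjusted p = 0.0721 for miR-361-5p and 0.154 for miR-146a-5p). With DESeq2 on all libraries, both had an adjusted p under 0.05 (0.00557 and 0.0159). With the library read totals the adjusted p was 0.0692 and 0.0376 (edgeR).

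miR-7a-5p, abundant in neurons and endocrine cells, had 1, 2 and 5 counts in CON and 228, 219 and 334 in VE. Its log2 fold change of 4.39 (SE 2.03, adjusted p = 0.46) lost its call without CON replicate 1 (3.85) or 2 (4.45) and without VE replicate 1 (4.33) or 3 (4.32). miR-1199-5p had 1, 3 and 0 counts in CON and 268, 168 and 56 in VE, and miR-8095 had 0, 1 and 4 counts in CON and 186, 261 and 225 in VE. Both passed the threshold with an adjusted p of 0.46. The miR-1199-5p call was lost without CON replicate 1 (4.14) or 3 (4.02) or without VE replicate 1 (3.87) or 2 (4.69), and that of miR-8095 without CON replicate 1 (4.19) or 2 (4.71) or any 1 VE library (4.72 to 4.93), or with RLE factors (4.41). The VE libraries were above the floor of every CON library for these miRNAs. When the VE and CON libraries were fitted alone, miR-7a-5p, miR-1199-5p and miR-8095 lost their calls (edgeR, unadjusted p = 0.0937, 0.132 and 0.0927).

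miR-204-5p, an epithelial miRNA of the Trpm3 gene best known from the eye and kidney, was counted 152, 102 and 120 times in VE and not once in CON or FAC. Against a floor of 3 counts per CON library its level was at least 9.52-fold higher in VE (adjusted p = 0.226), and it passed the threshold whichever 1 library was left out. miR-483-3p, which lies in Igf2, had 112, 31 and 118 counts in VE and none in CON, an increase of at least 6.57-fold. miR-7068-3p, with 121, 80 and 16 counts, was at least 5.89-fold higher (3.4-fold without VE replicate 1), and miR-9-5p, a miRNA of neural progenitors with 40, 22 and 27 counts, at least 2.29-fold higher. These last 3 passed the threshold (adjusted p = 0.46), and each lost its call in 5 of the 6 fits that left out 1 library, all but that without VE replicate 2 for miR-483-3p and without VE replicate 3 for the others, at log2 values of 7.87 to 9.90. With RLE factors the calls of miR-483-3p (9.73) and miR-9-5p (8.21) were lost. The smaller library sizes of CON limit what a count of 0 shows there.

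miR-25-5p, the passenger arm of a hairpin in the Mcm7 gene, had 1, 115 and 343 counts in CON and 0 in all VE libraries. Against the VE floor it was at least 249-fold lower in VE (adjusted p = 1.88e-05), a bound that fell to 134-fold without CON replicate 3. It was the only one of the 11 adjusted calls that kept an adjusted p under 0.05 whichever 1 library was left out. CON replicate 1, with 1 count, lay near the VE libraries. FAC exosomes held 67, 100 and 245 counts, in libraries of 5219420 to 7565362 miRNA counts against 452021 to 1211227 in CON. Equal counts therefore stand for lower levels in FAC than in CON. VE against FAC had an adjusted p of 0.00453, which was 0.125, 0.0933 and 0.101 without VE replicates 1, 2 and 3 in turn. The guide arm miR-25-3p was not lower: it was at 10239, 8454 and 3612 CPM in CON and 16345, 12485 and 13686 CPM in VE, and did not pass the threshold (edgeR, adjusted p = 0.46).

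miR-125b-1-3p, the passenger arm of a hairpin in the long non-coding RNA Mir100hg, was lower in VE with at least 1606 counts in each of the 6 libraries. It was at 6145, 4228 and 2620 CPM in CON and 1398, 948 and 1178 CPM in VE. The groups did not overlap, and the log2 fold change of -1.88 (SE 0.64, adjusted p = 0.121) passed whichever 1 library was left out. With the library read totals it was -0.20 and did not pass.

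The other 8 adjusted calls were lower in VE and rested on few CON libraries. miR-203-3p, a miRNA of differentiating epidermis, had 57, 3 and 182 counts in CON against 1, 1 and 0 in VE. Its pooled ratio of levels was 440 (95% counting interval 121 to 3657, adjusted p = 0.0252), and it was 741 without CON replicate 1 and 153 without CON replicate 3, where the adjusted p was 0.418. The other 7 had over 90% of their CON level in 1 library. These were miR-1934-3p (150, 3 and 2 counts), miR-3077-3p (1, 1 and 182), miR-1966-5p (0, 0 and 251), miR-6970-5p (0, 109 and 0), miR-6929-3p (0, 2 and 206), miR-5110 (0, 121 and 0) and miR-187-5p (1, 0 and 186). All were at 0 in VE apart from 1 count of miR-1934-3p in VE replicate 3. Their adjusted p-values lay between 0.0102 and 0.0356. Without CON replicate 3, miR-3077-3p, miR-1966-5p, miR-6929-3p and miR-187-5p were left with 2, 0, 2 and 1 counts in CON, and without CON replicate 2, miR-6970-5p and miR-5110 were left with 0. miR-1934-3p kept an unadjusted call without CON replicate 1 (adjusted p = 0.351). Of miR-6970-5p and miR-203-3p, FAC exosomes had 114 to 322 and 180 to 724 counts, in libraries with more miRNA counts than those of CON.

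Of the 5 tested epithelial miRNAs, 4 were lower in VE (7.13% of all entries were), with a negative log2 fold change under each scaling, and the fifth was at 0 in these 6 libraries. miR-200a-3p, miR-200b-3p and miR-429-3p, which come from 1 cluster and restrain the transition to a mesenchymal state through ZEB1, had 55, 102 and 117 counts in CON replicate 1, and miR-205-5p had 78. Across both other CON libraries together they had 1 count, and in VE none. Their adjusted p-values were 0.434 to 0.46, and no call remained without CON replicate 1 or without VE replicate 1, 2 or 3 (-8.71 to -9.83 without a VE library). Without CON replicate 2 or 3 only the miR-200a-3p call was lost (-9.26 and -9.25). With the library read totals only the miR-200b-3p call remained, and with RLE factors all but that of miR-200a-3p. miR-1a-3p, of heart and skeletal muscle, had 587, 0 and 185 counts in CON and 92, 1 and 5 in VE (adjusted p = 0.289), and its call was lost without CON replicate 1 (-3.33), VE replicate 2 (-3.58) or VE replicate 3 (-3.62). Of 4 tested leukocyte, 1 endothelial and 3 early embryo or germ cell entries, none passed the threshold. The summed leukocyte level was 23.7 to 315 CPM in CON and 1.81 to 258 CPM in VE.

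miR-122-5p, the leading miRNA of hepatocytes, was among the most abundant entries in granulosa cell exosomes. It was at 109352, 132209 and 117711 CPM in CON and 110944, 183381 and 183146 CPM in VE, and it led VE replicates 2 and 3. The groups overlapped, and the log2 fold change of 0.41 (SE 0.35, adjusted p = 0.63) did not pass the threshold, while with the library read totals it was 2.35 and passed (adjusted p = 0.028). The lists held no miRNA known to be particular to granulosa cells, so the label was not checked by a defining marker. Of 18 miRNAs linked to granulosa cells, gonadotropins or steroid synthesis, 14 were tested, 12 had counts in these 6 libraries, and none passed the threshold. miR-320-3p, the most abundant of them, was at 5550, 8704 and 10669 CPM in CON and 8703, 8732 and 8225 CPM in VE.

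Of the 10 entries with the highest mean level, 5 passed the threshold (10.4% of all 547 entries did), namely let-7c-5p, miR-99a-5p, miR-486a-5p/miR-486b-5p, let-7b-5p and miR-143-3p. The other 5 did not with TMM scaling. miR-423-5p was at 66998, 127212 and 149383 CPM in CON and 136082, 137387 and 113483 CPM in VE (log2 fold change 0.17, SE 0.36), and it passed with the library read totals (2.20, adjusted p = 0.0376). miR-148a-3p was at 75579 to 96688 CPM in CON and 63630 to 93548 CPM in VE (-0.13, SE 0.36), and miR-10b-5p at 22357 to 55728 CPM in CON and 22395 to 46032 CPM in VE (-0.15, SE 0.41). miR-151-3p was at 67311 to 91051 CPM in CON and 42218 to 69811 CPM in VE (-0.61, SE 0.38). For these abundant entries the VE and CON ranges overlapped.

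Other families were mixed. Of the 11 miR-17 to miR-92a entries with counts in these libraries, 1 was higher and 2 were lower past the threshold (3.29% and 7.13% of all entries), miR-25-5p among them. miR-20a-5p had 125 counts in VE replicate 1 and none in the other 5 libraries, and miR-363-3p had 371 counts in CON replicate 3 and none in the other CON libraries, against 13, 8 and 17 in VE. Each call was lost without that library, where miR-363-3p turned to 7.02, and the miR-20a-5p call also without CON replicate 1 (9.09), 2 (9.08) or 3 (9.07). The miRNAs of the imprinted Dlk1-Dio3 cluster are expressed from the maternal chromosome. Of its 27 counted entries, miR-411-5p and miR-495-3p were higher and miR-667-3p was lower, against 3.29% and 7.13% of all entries. miR-495-3p had 0, 1 and 0 counts in CON and 1, 96 and 294 in VE (adjusted p = 0.46), with its call lost without CON replicate 1 (5.13) or 3 (5.22) or VE replicate 3 (4.64). miR-411-5p had 0 counts in CON and 2, 1 and 192 in VE, and miR-667-3p 70, 2 and 1 counts in CON and 0 in VE, so that VE replicate 3 and CON replicate 1 held most of them, and each call was lost without that library (4.20 and -6.63). The miR-411-5p call was also lost without CON replicate 1 (9.22), 2 (9.12) or 3 (9.11), and that of miR-667-3p without VE replicate 1 (-9.25), 2 (-9.24) or 3 (-9.22). The list median was 0.37.

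Of the 11 tested miRNAs linked to iron, hypoxia or oxidative stress, miR-146a-5p was higher and 2 were lower, against 3.29% and 7.13% of all entries. The lower ones, miR-200a-3p and the p53 target miR-34a-5p (137, 1 and 0 counts in CON, 1, 0 and 0 in VE), had nearly all of their counts in CON replicate 1, and both calls were lost without it. The miR-34a-5p call was also lost without VE replicate 2 (-7.26) or 3 (-7.24), and that of miR-200a-3p without any other 1 library. The list median was -1.82. No member of the miR-23, miR-27 and miR-24 clusters (11 tested), the miR-148 and miR-152 family (5), the miR-30 family (10), the miR-26 and miR-29 families (8), the miR-181 family (7) or the miR-15 and miR-16 family (8) passed the threshold. Their medians lay between -0.13 and 1.01. Of the 9 tested stromal and mesenchymal entries, both arms of miR-143 were lower (7.13% of all entries were). The list median of -1.95 with TMM turned to 0.57 with the library read totals.

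**Figure D4:**
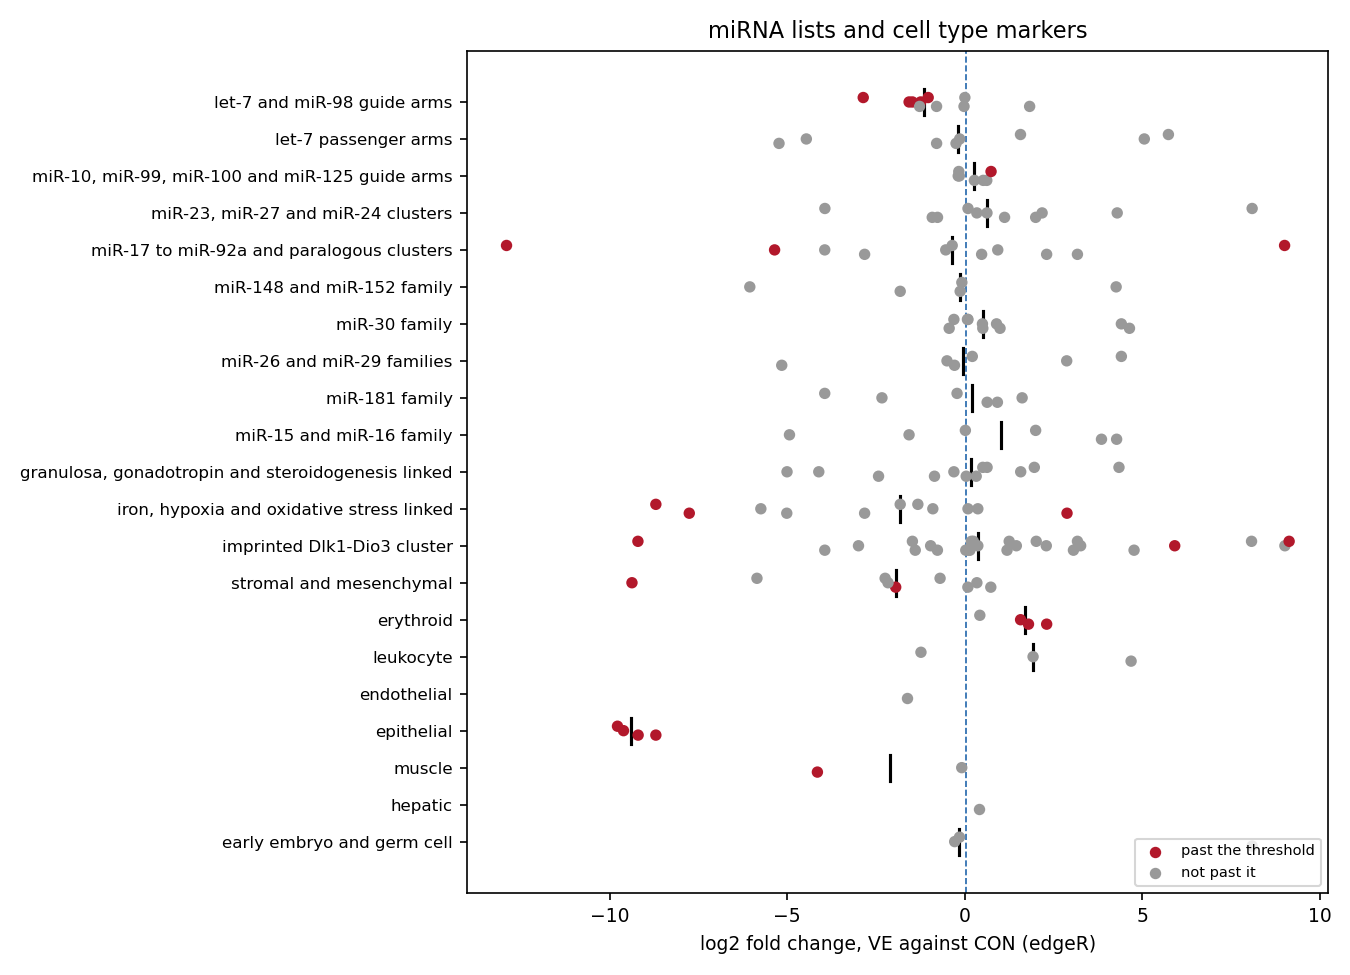
The log2 fold change of VE against CON (edgeR, TMM scaling) for members of each list that were counted in these 6 libraries. Red points passed the threshold, grey points did not, black bars are list medians and the dashed line is the median of 432 entries, 0.04. let-7 guide arms sit mostly to the left and erythroid markers to the right, and with the library read totals the let-7 median turns to 0.83.

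The FAC libraries show which of these differences were also measured with iron alone. VE against CON and FAC against CON share the CON libraries, so their values are set side by side without a test of likeness. The mean share of library reads counted on miRNAs was 24.7% in FAC and 12.6% in DFO, against 3.28% in CON. All values in this paragraph use TMM scaling, and those of FAC and DFO on the library read totals are not given here. With TMM scaling, let-7b-5p gave -1.24 (SE 0.40) in VE and -1.78 (SE 0.41) in FAC, and let-7c-5p gave -1.03 (SE 0.34) in VE and -1.07 (SE 0.34) in FAC. miR-125b-1-3p gave -1.88 (SE 0.64) in VE and -2.22 (SE 0.65) in FAC. miR-99a-5p gave 0.74 (SE 0.36) and 1.02 (SE 0.36), miR-361-5p 3.02 (SE 1.38) and 2.68 (SE 1.36), and miR-146a-5p 2.88 (SE 1.33) and 3.74 (SE 1.38). In DFO exosomes, which had the iron and the chelator, let-7b-5p, let-7c-5p and miR-125b-1-3p stood at 0.16 (SE 0.40), 0.19 (SE 0.33) and -0.21 (SE 0.62) against CON, and miR-99a-5p at -0.30 (SE 0.35).

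The erythroid miRNAs and miR-143-3p were also compared between VE and FAC directly. With TMM scaling, only miR-486a-5p/miR-486b-5p of these had an adjusted p under 0.05 (edgeR), and miR-143-3p, whose values are given above, did not. With RLE factors or the library read totals, miR-143-3p did (edgeR, -1.55 and -2.88, adjusted p = 0.0367 and 0.0134). DESeq2 gave miR-143-3p an adjusted p of 0.00809. With TMM scaling its adjusted p was 0.244, 0.383 and 0.141 without VE replicates 1, 2 and 3 in turn. Against CON, miR-486a-5p/miR-486b-5p gave -0.09 (SE 0.38) in FAC, against 1.57 in VE. Directly, VE exceeded FAC by 1.67 on the log2 scale (SE 0.39, adjusted p = 0.00453, or 0.196 without VE replicate 1 and 0.101 without VE replicate 3), and 51 of the 547 entries (9.32%) passed the fold and p threshold in that comparison. FAC levels of miR-486a-5p/miR-486b-5p were 6903, 13073 and 106409 CPM, so the third library lay within the VE range, and DESeq2 gave an unadjusted p of 0.0604 for the same difference. VE against FAC was 2.24 (SE 0.92, adjusted p = 0.42) for miR-486b-3p, lost without VE replicate 1 (1.87) or 3 (2.01). It was 1.94 (SE 0.83, adjusted p = 0.444) for miR-451a, lost without VE replicate 3 (0.67). With the library read totals none of these 3 erythroid entries passed the threshold in VE against FAC.

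**Figure D5:**
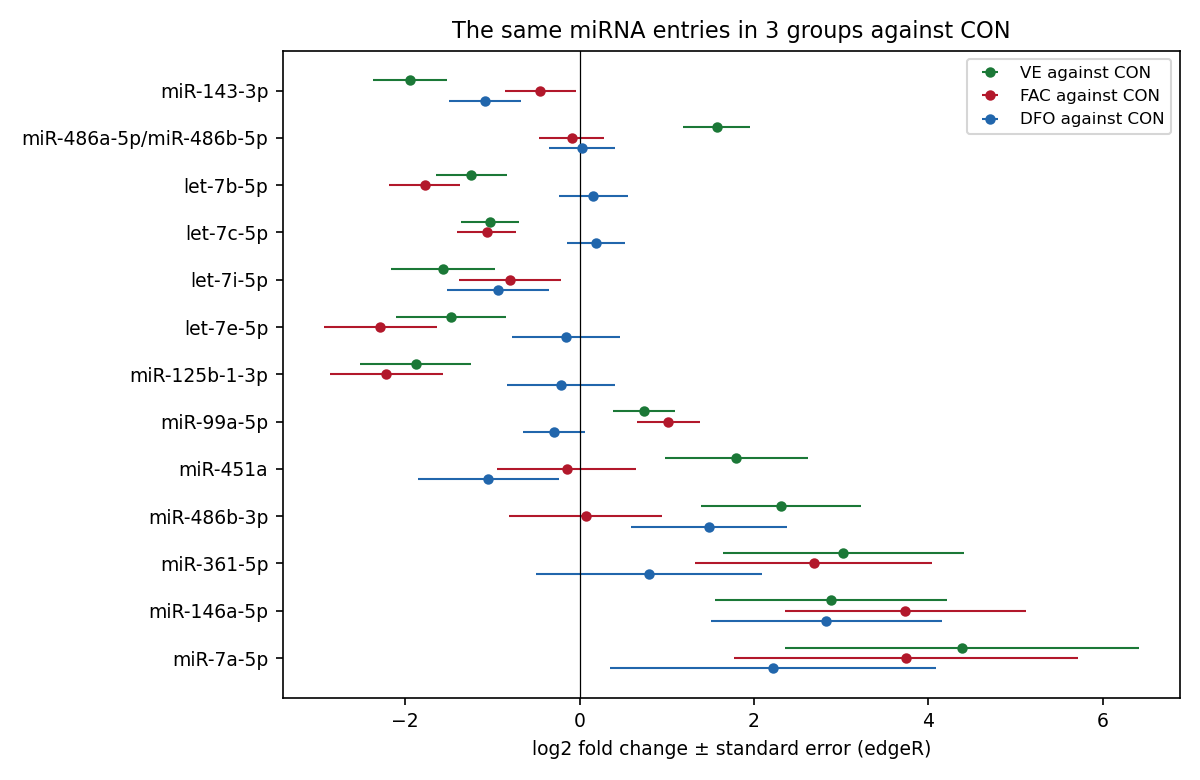
The log2 fold change against CON (edgeR, TMM scaling), with its standard error, of 13 miRNA entries in VE, FAC and DFO, which share the same 3 CON libraries. miR-486a-5p/miR-486b-5p is at 1.57 in VE and -0.09 in FAC, and miR-99a-5p at 0.74 and 1.02. let-7b-5p is at -1.24 in VE and -1.78 in FAC, and at 0.73 in VE with the library read totals.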

How the data were processed

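Small RNA was sequenced from exosomes of mouse granulosa cells in 12 libraries, and the VE and CON libraries are described here. Per the study's methods, vesicles were collected by stepwise centrifugation and their RNA was extracted with the exoEasy Maxi kit. For each library the authors deposited raw read counts on 637 miRNA entries, 5 of which join 2 miRNAs. They also deposited RPM values, the counts relative to a library total larger than the miRNA counts. Count divided by RPM gave that total, which was used for the share of reads on miRNAs and for 1 alternative scaling. The submitters' processing notes name mm9. The aligner, the miRNA database and the handling of reads with several matches are not given in the sources used here.

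Counts were tested with edgeR 4.0.16 (R 4.3.3; quasi-likelihood test, TMM factors) in 1 fit of all 12 libraries, over the 547 entries with at least 10 counts summed over them, with Benjamini-Hochberg adjustment over all 547. The threshold was a fold change of at least 1.5 with an unadjusted p under 0.05. The standard error (SE) of a log2 fold change was its absolute value divided by the square root of the quasi-likelihood F statistic. Single values per library were compared by exact two-sided permutation tests (scipy 1.17.1). No 2 of the libraries had counts that agreed within sampling noise. The scripts were tested on simulated counts.

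The entries named were those with an adjusted p under 0.05, up to 8 in each direction past the threshold whose libraries did not overlap and that had at least 10 counts in every library of the higher group, the 10 of highest mean level, the called members and the most abundant uncalled member of each miRNA list, and entries with at least 10 counts in all libraries of one group and 0 in the other. The comparison, the miRNA lists and the cell type markers were chosen with earlier results of these data known. Alternatives were other scalings, filters and samples, DESeq2 1.42.0, a replicate block and leaving out each library. A separate filter was added after seeing the data. Sequences and neighbouring genes came from RefSeq GRCm38.p6, and no coordinates are given because its build differs from that of the files.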

Additional observations from a re-analysis of the deposited data

How the results depend on the processing

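Against 57 entries past the threshold (18 higher, 39 lower, 11 adjusted), the library read totals gave 118 (105 higher, 13 lower), which held 31 of the 57. Testing only entries with at least 10 counts in every library gave 16 (8 and 8, with 0 adjusted), which held 10 of the 57. A filter of at least 10 counts in 2 VE or 2 CON libraries, chosen after seeing the data, gave 33 (20 higher, 13 lower, 2 adjusted), which held 21. With that count of 0 adjusted from edgeR, 16 entries had an unadjusted p under 0.05 and a fold of at least 1.5, and DESeq2 on all entries called 20 adjusted. RLE factors gave 10 higher, and a fit of the VE and CON libraries alone gave 6 higher. That fit had 9 adjusted calls, 5 of them among the 11. Leaving out 1 library gave 32 to 52 entries past the threshold, 10 to 17 higher, 22 to 37 lower and 2 to 10 adjusted. The cause of these shifts was not tested, apart from the fewer entries tested under the stricter filters.

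Equal replicate numbers showed no clear pairing: deviations of VE and CON libraries of the same number correlated at 0.024, 0.034 and -0.00041. Yet 4 of the 6 libraries correlated best with their own number, so these values do not settle whether the libraries are paired. A fit with the replicate block gave 36 entries (24 lower), 2 of them adjusted, with miR-451a at 0.76 and not past the threshold and miR-486a-5p/miR-486b-5p at an adjusted p of 0.118.

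With the library read totals the direction reversed for let-7b-5p (0.73), let-7c-5p (0.98), let-7i-5p (0.28), let-7e-5p (0.72), miR-148a-3p (1.72), miR-151-3p (1.30) and miR-10b-5p (1.60). miR-423-5p reversed with RLE factors or DESeq2 (both -0.14) and without CON replicate 1 (left-out range -0.10 to 0.39). miR-148a-3p reversed with at least 10 counts in every library (0.012) and without VE replicate 1 (range -0.25 to 0.017). miR-10b-5p reversed with that filter (0.015), without CON replicate 1 (0.17) and without VE replicate 1 (0.093; range -0.47 to 0.17), and miR-363-3p with the block (0.82) and without CON replicate 3 (range -5.99 to 7.02). Of the other alternatives for single miRNAs against CON, 458 kept direction and side of the threshold, 142 kept direction but no longer passed, 7 had a log2 fold change of 0 because no counts were left, and 4 came to pass, namely miR-122-5p and miR-423-5p with the library read totals and miR-151-3p with RLE factors and in the fit of VE and CON alone. DESeq2 gave no p for 14 of the 46 miRNAs followed, which are not counted. The filter on every library, the fit of VE and CON alone and the fit without CON replicate 3 moved the median entry by 0.12, -0.15 and -0.13 (log2).

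Depth limits the entries near the floor, where CON libraries resolve 2.46 to 7.90 CPM.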

Other observations

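Entries counted at least 10 times in 1 library and at most 3 times in each of the other 5 VE and CON libraries were found in every library. There were 24, 5 and 6 of them in CON replicates 1 to 3 and 16, 16 and 27 in VE replicates 1 to 3. Where 57 of all 547 tested entries (10.4%) passed the threshold for VE against CON, 15, 5 and 5 of those in CON did. Of those in VE, 1, 0 and 1 did. Their median counts were 68, 56 and 184 in the CON libraries and 93.5, 81.5 and 101 in the VE libraries, while the total miRNA counts were lower in CON. The part of library size in this imbalance was not tested.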
